A study of Mus musculus with 8 samples.

Results

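Expression of 8 genes of airway cartilage was examined in whole fetal mouse lungs: Acan, Matn1, Matn3, Comp, Hapln1, Chad, Sox5 and Sox6. The members were a fixed list of symbols, matched by symbol to the 55385 gene IDs of the deposited count files, and all 8 were found. The lungs came from C57BL/6 fetuses collected at E18.5. In the TO group the trachea had been tied off at E16.5 together with one carotid artery and one jugular vein, and the control group is given in the labels only as control, so whether the control fetuses were operated on cannot be read from them. Each group held 4 lungs, with 1 mRNA-seq library per lung, and the whole lung was homogenized, so that airway, vessel and alveolar tissue share each library. Controls 1, 2 and 4 and TO 2, 3 and 4 are the lungs whose specimen names the study displays for its mRNA-seq, and the test of TO against control was fitted on these 6 libraries, while levels are given for all 8. No label ties the lungs to separate litters, so p-values measure only the spread between these samples.

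Cartilage rings hold the trachea and the large bronchi open. Chondrocytes, the cells of cartilage, lie in a matrix of type II collagen and of aggrecan, the large proteoglycan encoded by Acan, whose bond with hyaluronan is held by the link protein encoded by Hapln1. Matn1 and Matn3 encode matrilins and Comp encodes a thrombospondin family protein, adaptors that join collagen fibrils to proteoglycans, Chad encodes chondroadherin, a leucine-rich repeat protein to which chondrocytes attach, and Sox5 and Sox6 encode transcription factors that work with Sox9 in chondrocyte differentiation. Sox5 and Sox6 are also used by other lineages, such as neural and muscle cells.

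The library of TO 1 held 270078 read pairs on genes, while the remaining 7 held between 22822261 and 35002061. Levels are read pairs scaled to a common library total (CPM) after TMM scaling. One read pair equalled 3.43 CPM in TO 1 and 0.0284 to 0.0438 CPM elsewhere, so the levels of TO 1 rest on 0 to 7 read pairs per member, and for 7 of the 8 members, all but Comp, their 95% exact Poisson intervals take in levels of other lungs. A floor of 3 read pairs stands at 10.3 CPM in TO 1. TO 1 also stood apart in other tissues' genes: the sum of 10 skeletal muscle genes was 2990 CPM there and 28.7 to 347 CPM in the other libraries. The part of these differences in the members' values of TO 1 was not tested.

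Compared per kilobase of merged exons over the 7 deep libraries, the link protein gene Hapln1 had the highest mean level of the members, 8.38 ± 3.58 CPM per kb (SD, n = 7). Chad followed at 7.74 ± 3.38 CPM per kb, within the spread of Hapln1. Sox5 (1.32 ± 0.237) and Sox6 (1.28 ± 0.227 CPM per kb) lay together below them. Acan reached 0.694 ± 0.43, Matn3 0.489 ± 0.219 and Comp 0.281 ± 0.101 CPM per kb, and each of these neighbours, with Sox6 above Acan, overlapped the next within 1 SD. Matn1 came last with 0.0364 ± 0.0644 CPM per kb. In the order of levels, gaps beyond the SDs stood only between Chad and Sox5 and between Comp and Matn1.

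The matched cartilage label was checked on other defining genes of the tissue. Col2a1, the type II collagen that makes up most of the fibrils of cartilage, stood at only 5.59 to 24.5 CPM in the 7 deep libraries. Ucma, a protein of resting and distal chondrocytes, had no read pair in any library, and Matn1, the matrilin restricted to cartilage, had none in controls 1, 2 and 3 and TO 4. Of the 24 other cartilage matrix genes, the most abundant were Matn4 (75.1 to 221 CPM) and Col27a1 (62.1 to 167 CPM), both of which are used outside cartilage as well. Col9a1, Col9a2 and Col9a3, the chains of the type IX collagen on cartilage fibrils, reached 2.98 to 8.93, 7.65 to 27.8 and 2.46 to 10.7 CPM in the deep libraries. Cartilage collagens were thus measured in every deep library, while Ucma and Matn1 were at or near 0. Col2a1, Ucma and the Col9 genes were named here as textbook markers after their values were seen.

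The promoter windows of Sox6 and Chad are shown. RefSeq windows of GRCm38.p6, each from 250 bases before to 50 after a start site, existed for 7 of the 8 members, 12 windows in all with 6 of them for Sox6. They were searched for AACAAT, the core that SOX proteins bind, on both strands (ATTGTT on the other), matched exactly. Only 1 of the 12 windows held it, against 10.7% of all 32851 windows. That window belongs to an internal start site of Sox6, with 1 match on each strand, written in capitals, and the window of Chad, the member with the smallest p below, is given beside it with no match. The bases before each start site, 250 in number, are printed 5′ to 3′ on the gene's strand.
Sox6, chr7:115824711-115824960 (minus strand): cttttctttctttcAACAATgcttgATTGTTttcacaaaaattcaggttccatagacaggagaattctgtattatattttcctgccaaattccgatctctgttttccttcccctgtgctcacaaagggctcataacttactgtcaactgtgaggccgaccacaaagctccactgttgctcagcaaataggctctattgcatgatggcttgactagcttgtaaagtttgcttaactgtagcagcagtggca
Chad, chr11:94564797-94565046 (plus strand): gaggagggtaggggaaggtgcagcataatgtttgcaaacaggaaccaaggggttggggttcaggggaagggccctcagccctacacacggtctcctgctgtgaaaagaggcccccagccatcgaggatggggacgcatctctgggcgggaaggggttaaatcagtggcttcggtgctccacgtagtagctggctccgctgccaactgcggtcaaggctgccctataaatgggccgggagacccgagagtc
A match is a description of these letters, not of binding, and no count in these files measures which start site of Sox6 was used.

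No member passed the test between TO and control lungs. None of the 7 members that passed the filter (at least 5 reads in 3 or more of the 6 libraries) had an adjusted p under 0.1 by edgeR's quasi-likelihood test, where 0% of 21859 genes did. By DESeq2 none was called either, where 0.201% of the genes were. At an unadjusted p under 0.05 by edgeR, 1 member was higher in TO (Chad) and none lower, against 3.07% and 2.07% of all genes. With the replicate number as a block, which called 219 genes (1% of those tested) in the same 6 libraries, again no member was called. Only numbers 2 and 4 have a lung in both groups there, since control 3 and TO 1 are left out. Control 1 and TO 3 are alone in their blocks, so the blocked TO effect rests on pairs 2 and 4. In these 6 libraries the block brought 3 members, Acan, Hapln1 and Chad, all higher in TO, to an unadjusted p under 0.05 by edgeR (0.0308, 0.036 and 0.0396). At that p 3.72% of genes were higher and 2.19% lower, and the adjusted p of the 3 members were 0.754, 0.776 and 0.794. With the block in the 7 deep libraries, where pair 3 is complete, their unadjusted p by edgeR were 0.228, 0.272 and 0.0505. In all 8 libraries the blocked values were 0.163, 0.863 and 0.0262. For none of the 8 members did the 3 TO lungs all lie above or all lie below the 3 control lungs, which 5.06% and 5.82% of genes did. Of the 7 fitted log2 fold changes 5 were above 0 and 2 below, with a median of 0.29 beside a median of -0.0045 over all genes tested. In whole lung, a different number of cells of a type and a different amount of RNA per cell cannot be told apart.

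**Figure D1:**
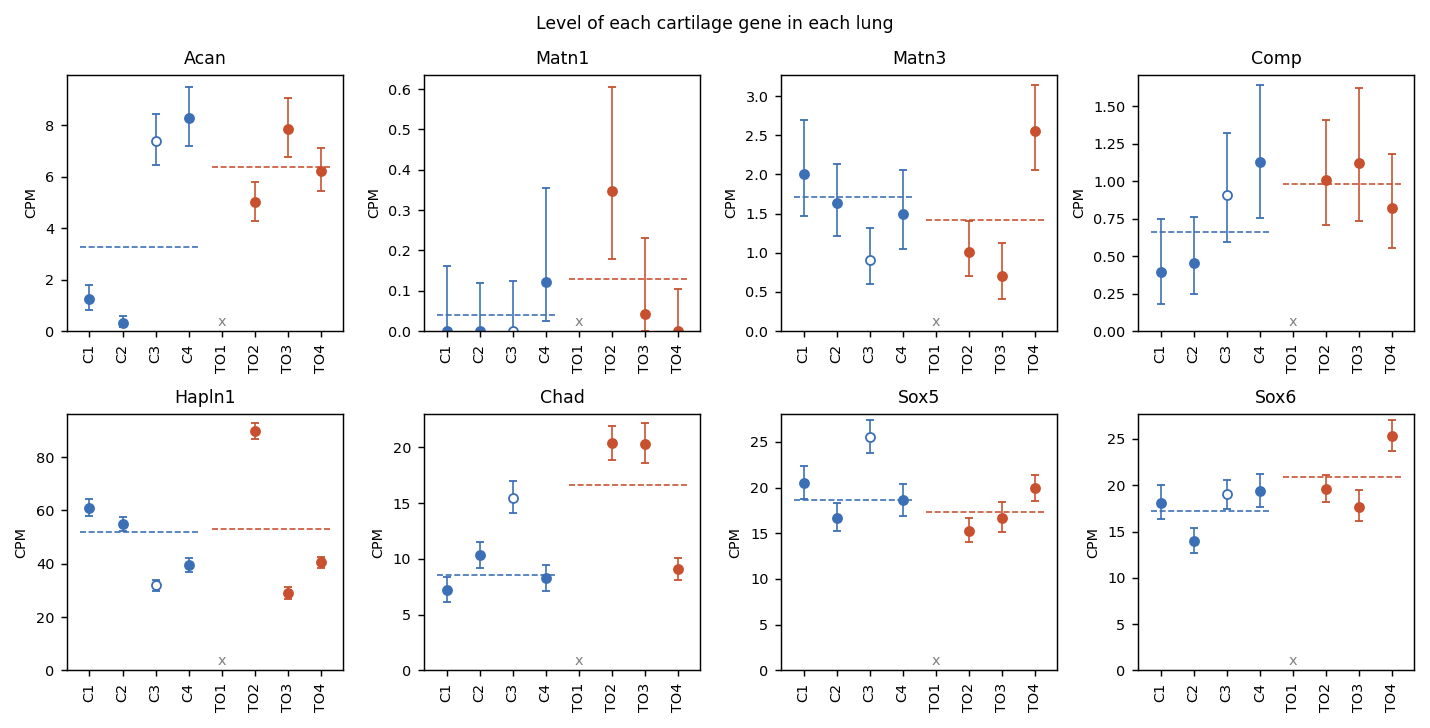
Level of each member (CPM after TMM, linear axis from 0) in each lung, with bars for the 95% exact Poisson interval of the count and dashed lines for the mean of the 3 lungs fitted per group. Blue points are control and orange points TO, the open point is control 3, outside the fit, and a grey x marks TO 1, whose 270078 read pairs give no usable level. The 2 groups overlap in all 8 panels, and Acan is low in controls 1 and 2 alone.

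Acan, the aggrecan gene (chromosome 7, 79053483 to 79115099 of GRCm38, plus strand), had the widest ratio of highest to lowest level among the 7 members with reads in every deep library. Its level was 1.23, 0.325, 7.38 and 8.29 CPM in controls 1 to 4. In TO 1 to TO 4 it was 3.43 (1 read pair), 5.0, 7.85 and 6.23 CPM. Controls 1 and 2 were therefore below every other deep library, whereas controls 3 and 4 lay within or above the range of TO. The highest level was 25.5 times the lowest over the 7 deep libraries. The 3 fitted control lungs averaged 3.28 ± 4.36 CPM and the 3 TO lungs 6.36 ± 1.43 CPM (SD), a log2 fold change of 0.95 ± 0.87 (SE) with an adjusted p of 0.931 by edgeR. Without control 4 the log2 fold change was 3.06 with an adjusted p of 0.168, and without control 2 it was 0.42. In the 7 libraries with control 3 included it was 0.56, and with the replicate block in 6 libraries 1.41. That blocked value rests on pairs 2 and 4, where TO minus control was 4.68 and -2.06 CPM.

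The controls low in Acan were also low in atrial muscle genes. Myh6, the heavy chain of atrial myosin, stood at 299 and 167 CPM in controls 1 and 2 and at 1030 to 1900 CPM in the other libraries. Sln, a regulator of the calcium pump of atrial muscle, was at 4.47 and 2.05 CPM there and 26.8 to 41.2 CPM elsewhere. The 2 genes of ventricular muscle, named after their values were seen, differed from this pattern. Myl2 was at 1.53 and 5.24 CPM in controls 1 and 2 but also at 1.73 and 1.78 CPM in TO 2 and TO 3, where Acan was high, and at 153 CPM or more in the other libraries. Myh7 was at 72.6 and 99.3 CPM in controls 1 and 2, 130 and 165 CPM in TO 2 and TO 3 and at least 590 CPM elsewhere. The summed level of all 10 cardiac genes was 801 and 559 CPM in controls 1 and 2, 4440 to 5650 CPM in controls 3 and 4 and 2540 to 8040 CPM in the TO lungs, and none of the 10 was called, although all 10 fitted log2 fold changes were above 0. Among 16912 genes with at least 5 reads in each of the 7 deep libraries, the 5 whose log2 CPM followed Acan most closely included Myl4, Sln and Myh6, a comparison chosen after the values were seen. Since the libraries fall into 2 clusters on this measure, no pooled correlation is given. The part of cardiac RNA in the Acan values was not tested.

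**Figure D2:**
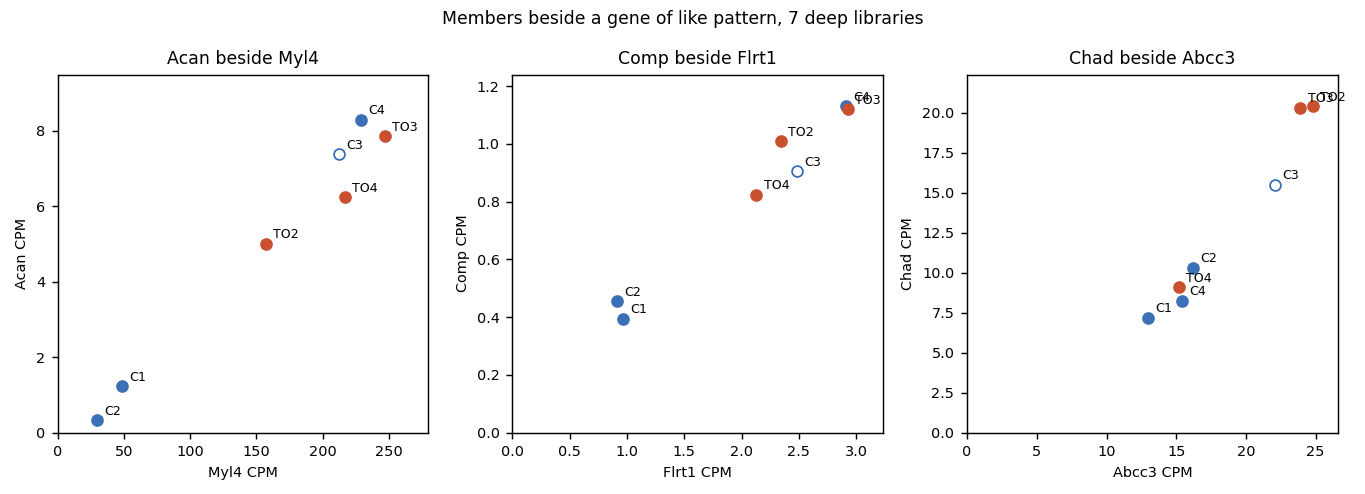
Levels of Acan, Comp and Chad (CPM, vertical) against the gene whose pattern was most like each over the 7 deep libraries (CPM, horizontal): Myl4, an atrial myosin light chain, Flrt1 and Abcc3. Blue is control, orange TO and the open point control 3. Controls 1 and 2 form a low cluster apart from the other 5 libraries for Acan and Comp, and TO 4 lies with controls 1, 2 and 4 for Chad.

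Comp (chromosome 8, 70373558 to 70382066, plus strand) was scarce. It had 0.394, 0.455, 0.906 and 1.13 CPM in controls 1 to 4 and 1.01, 1.12 and 0.824 CPM in TO 2, TO 3 and TO 4. TO 1 read 13.7 CPM from 4 read pairs, with a 95% exact Poisson interval of 3.74 to 35.2 CPM. Controls 1 and 2 were again the lowest libraries, and controls 3 and 4 overlapped TO. The log2 fold change was 0.57 ± 0.63 (SE) with an adjusted p of 0.942 by edgeR. It was 1.20 without control 4 and 0.32 without control 1. Over the 7 deep libraries Acan and Comp had the highest Pearson correlation of log2 CPM among the 28 pairs of members, a relation that rests on the low levels of controls 1 and 2. The gene nearest to Comp, by a comparison chosen after the values were seen, was Flrt1, a leucine-rich transmembrane protein gene, and Myl7, an atrial light chain gene (45.0 and 51.2 CPM in controls 2 and 1, 197 to 249 CPM in the other deep libraries), was also among the nearest 5.

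Matn1 (chromosome 4, 130944385 to 130955475, plus strand) was detected by 17 read pairs in all 8 libraries together. Control 4 had 3 of them, TO 1 had 1, TO 2 had 12 and TO 3 had 1, and no other library had any. Counts in every library but TO 2 lay at or below the floor of 3 read pairs, so no difference between the groups was detectable at this depth and no fold change is given. By the floor of 3 read pairs, the 0 in controls 1, 2 and 3 and TO 4 allows a level of up to 0.131, 0.0976, 0.101 and 0.0853 CPM. The upper ends of the 95% exact Poisson intervals, as drawn in the plot of levels by lung, are 0.161, 0.12, 0.124 and 0.105 CPM for the same libraries.

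Matn3 (chromosome 12, 8947929 to 8972028, plus strand), which is mainly known from growth plate cartilage, was present at 2.01, 1.63, 0.906 and 1.5 CPM in controls 1 to 4. TO 1 had none, and TO 2, TO 3 and TO 4 had 1.01, 0.702 and 2.56 CPM. The lowest and the highest of the deep libraries were both TO lungs. The log2 fold change was -0.25 ± 0.55 (SE), with an adjusted p of 0.975 by edgeR. It changed sign with the replicate block in 6 libraries (0.06), but not with the block in 7 (-0.08) or 8 libraries (-0.21).

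Hapln1 (chromosome 13, 89539796 to 89611652, plus strand) was at 60.9, 54.8, 31.9 and 39.4 CPM in controls 1 to 4. In TO 1 to TO 4 it was 24.0 (7 read pairs), 89.7, 29.1 and 40.5 CPM. TO 2 alone exceeded all controls, and TO 3 was below them all. The means were 51.7 ± 11.1 CPM in the 3 fitted control lungs and 53.1 ± 32.2 CPM in the 3 TO lungs, with a log2 fold change of 0.04 ± 0.36 (SE) and an adjusted p of 0.994 by edgeR. Without TO 2 the sign turned, to -0.57, and with the replicate block in 6 libraries the value was 0.38.

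Chad (chromosome 11, 94565047 to 94569127, plus strand) was the member with the smallest p. It was at 7.18, 10.3, 15.5 and 8.25 CPM in controls 1 to 4. In TO 1 to TO 4 it was 20.6 (6 read pairs), 20.4, 20.3 and 9.07 CPM. TO 2 and TO 3 exceeded every control, while TO 4 lay among the controls, below control 2 and control 3. The fitted groups averaged 8.57 ± 1.57 and 16.6 ± 6.52 CPM, a log2 fold change of 0.95 ± 0.31 (SE) with an unadjusted p of 0.0136 and an adjusted p of 0.907 by edgeR, and 0.294 by DESeq2. Without TO 4, the deep TO lung with Chad among the controls, the log2 fold change was 1.25 with an adjusted p of 0.0839 by edgeR, past the threshold of 0.1. That fit called 144 of 20801 genes. The log2 fold change of Chad was 0.69 with control 3 included (unadjusted p of 0.0731 by edgeR), and 0.575 and 0.508 with the replicate block in 6 and 7 libraries. TO minus control was positive in 3 of 3 deep pairs with the same number (10.1, 4.82 and 0.821 CPM for pairs 2, 3 and 4). In pair 4 the 95% exact Poisson intervals overlapped (8.1 to 10.1 CPM in TO 4, 7.16 to 9.46 CPM in control 4). Each other member was positive in 1 or 2 of the 3 pairs. The share of all genes positive in 3 of 3 was not computed, so no weight is put on this count.

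The genes nearest to Chad in pattern, chosen after the values were seen, were Abcc3, a transporter of conjugates, Gdpd2, Cd36, a fatty acid receptor of capillary endothelium and macrophages, Fam184a and Tnfaip3. Cd36 ran from 241 CPM in control 1 to 483 CPM in TO 3, with 475 CPM in TO 2 and 292 CPM in TO 4. The 8 lung epithelial genes summed to 18000 and 13700 CPM in TO 2 and TO 3, 8010 CPM in TO 4 and 8810 to 15300 CPM in the controls, and none of the 8 was at 0 in all libraries or called. The part of such differences between lungs in the level of Chad was not tested.

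Sox5 (chromosome 6, 143828425 to 144781977, minus strand) was among the steadiest members. It was at 20.5, 16.7, 25.5 and 18.6 CPM in controls 1 to 4 and at 6.87 (2 read pairs), 15.3, 16.7 and 19.9 CPM in TO 1 to TO 4. TO 2 was the lowest deep library, and TO 4 lay within the control range. The log2 fold change was -0.10 ± 0.17 (SE) with an adjusted p of 0.966 by edgeR, and with control 3 included it was -0.23. Its exons share 1330 bases, 9.25% of their length, with the antisense gene Sox5os1, and since the 2 strands took equal shares of the reads of each library, reads from that stretch cannot be assigned to either gene.

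Sox6 (chromosome 7, 115470872 to 116038796, minus strand) was at 18.1, 14.0, 19.0 and 19.4 CPM in controls 1 to 4. In TO 1 to TO 4 it was 13.7 (4 read pairs), 19.6, 17.7 and 25.3 CPM. TO 4 was the highest library and control 2 the lowest deep one, and the groups overlapped. The log2 fold change was 0.29 ± 0.20 (SE) with an adjusted p of 0.909 by edgeR. It was 0.13 without TO 4 and 0.16 without control 2.

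**Figure D3:**
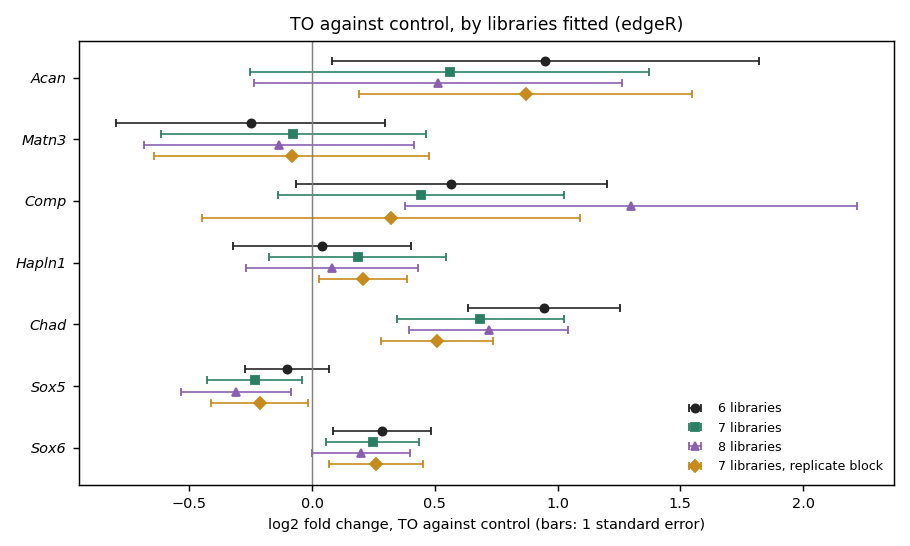
Fitted log2 fold change of TO against control (horizontal, bars of 1 SE) for the 7 members tested, from edgeR on 6, 7 and all 8 libraries and on 7 libraries with the replicate block. Chad stays above 0 by over 1 SE in each fit, and Hapln1 and Matn3 lie near 0. Comp is at 0.57 in 6 libraries and 0.44 in 7, and moves to 1.30 once TO 1 enters.

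The scatter of the members could be set beside a second measure of error. The libraries do not mark strand, so the read pairs of a gene should divide evenly between strands. In Acan the share on the first strand ran from 0% (0 of 10 read pairs, control 2) to 69.9% (121 of 173, TO 2), and the variance of the split was 7.54 times that of independent counts. The same ratio was 6.46 for Hapln1, 4.66 for Chad, 7.19 for Sox5, 5.16 for Sox6, 3.88 for Comp, 2.4 for Matn3 and 1.78 for Matn1, beside a median of 4.17 over all genes tested. Poisson intervals of single levels are therefore too narrow for these genes. The biological coefficient of variation fitted by edgeR was 0.73 for Acan against 0.365 for genes of its abundance, 0.322 against 0.181 for Hapln1 and 0.294 against 0.265 for Chad, while Sox5 (0.189 against 0.233), Sox6 (0.208 against 0.229), Matn3 (0.49 against 0.514) and Comp (0.52 against 0.649) lay below the trend.

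The members did not vary as one unit. Of the 28 pairs, 15 had a correlation above 0 and 13 below, with a median of 0.12 over 7 libraries. The extremes were Acan with Comp (r = 0.90) and Matn3 with Chad (r = -0.87), with no test, since the pairs share the same libraries. The mean log2 CPM of the 6 matrix members was followed most closely by Rspo3, a secreted amplifier of Wnt signals (r = 0.98, n = 7 libraries), and by Spp1, the bone and macrophage protein osteopontin (r = 0.97), followed by Sipa1l2, Ccn4, Elovl4, Lrrn2, Lsm11, Smpd3, Shox2 and 2510017J16Rik, each with r of 0.915 or more. These r were picked as the highest among 16908 genes, and the mean includes Acan, Comp and the scarce Matn1. Of the deep libraries, controls 1 and 2 were lowest in Rspo3 (1.14 and 0.553 CPM) and Spp1 (0.832 and 0.163 CPM). TO 2 was highest in both (3.9 and 9.05 CPM), so the r of these genes lean on a few lungs. Col2a1 ranked 14th of 16908 genes (r = 0.91), Sox6 1163rd (r = 0.58, and 0.70 with Acan alone) and Sox5 11664th (r = -0.24).

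Other genes of the same pathway were read beside the members. Among the 24 other cartilage matrix genes 21 were tested, 8 had a fold change above 0 and 13 below, with a median log2 fold change of -0.13, and none was called by edgeR or DESeq2. Only Cilp, a matrix protein of the middle zone of articular cartilage, had an unadjusted p under 0.05 by edgeR, and its level was 0.613, 0.390, 0.806 and 0.364 CPM in controls 1 to 4 against 1.21, 1.78 and 1.68 CPM in TO 2, TO 3 and TO 4, with no read pair in TO 1. All 3 of these TO lungs lay above all controls, at 9 to 59 read pairs per deep library, for a log2 fold change of 1.77 with an adjusted p of 0.907. In the 6 fitted libraries 3 of the 24 genes, Cilp, Chst11 and Xylt1, had all TO lungs above all control lungs, and 0 had all below. The shares over all genes were 5.06% and 5.82%. Control 3, outside that fit, had the highest Xylt1 of all libraries (35.5 CPM). With control 3 included the log2 fold change of Xylt1 was -0.0114, while those of Cilp and Chst11 were 1.51 and 0.295. Of the 13 chondrocyte regulators 11 were tested and none was called. The most abundant were Fgfr3, a receptor that restrains chondrocyte growth, at 232 to 254 CPM in the controls and 192 to 229 CPM in the deep TO lungs, and the ubiquitin ligase gene Wwp2. Pth1r, the receptor for parathyroid hormone-related protein, had a log2 fold change of -0.52 and Ihh, the hedgehog ligand of prehypertrophic chondrocytes, of 2.96 at 0.925 CPM or less, each with an adjusted p of 0.907. With control 3 included, which had 0.604 CPM of Ihh, the value for Ihh was 1.38.

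Several genes of hypertrophic cartilage and bone were high in single lungs. Of 12 such genes 9 were tested, 6 above 0 and 3 below, with a median log2 fold change of 0.48 and no call. By edgeR 2 were higher in TO at an unadjusted p under 0.05, as 3.07% of all genes were. These were Mmp13 (log2 fold change 4.28, p of 0.0133) and Spp1 (1.98, p of 0.0461), each with an adjusted p of 0.907. For Mmp13 the 3 TO lungs lay above the 3 fitted controls, which 5.06% of genes did. Control 3, outside the fit, had 0.403 CPM of Mmp13 and TO 4 0.199 CPM. In TO 2, the deep library with the highest Hapln1 and Matn1, Spp1 was at 9.05 CPM, and at 0.163 to 2.81 CPM in the other 6. Mmp13, a collagenase of hypertrophic chondrocytes and bone cells, was at 2.75 CPM in TO 2 and 0 to 0.744 CPM in the others. Col10a1, the collagen that defines hypertrophic chondrocytes, was at 6.68 CPM in TO 2 and at most 0.683 CPM elsewhere, a gene named after its values were seen. Other genes of the list were not highest in TO 2. Alpl was lowest there of the deep libraries (3.96 CPM) and Bglap had no read pair. Phex was at 43.3 CPM in TO 2, against 45.4 and 43.4 CPM in controls 1 and 2. In TO 1 Spp1 read 85.8 CPM (25 read pairs) and Ibsp, a bone sialoprotein gene, 61.8 CPM (18 read pairs), while Col10a1 had no read pair. Ibsp was listed at 0 in control 3 and TO 3. The part of bone cells in these values was not tested.

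**Figure D4:**
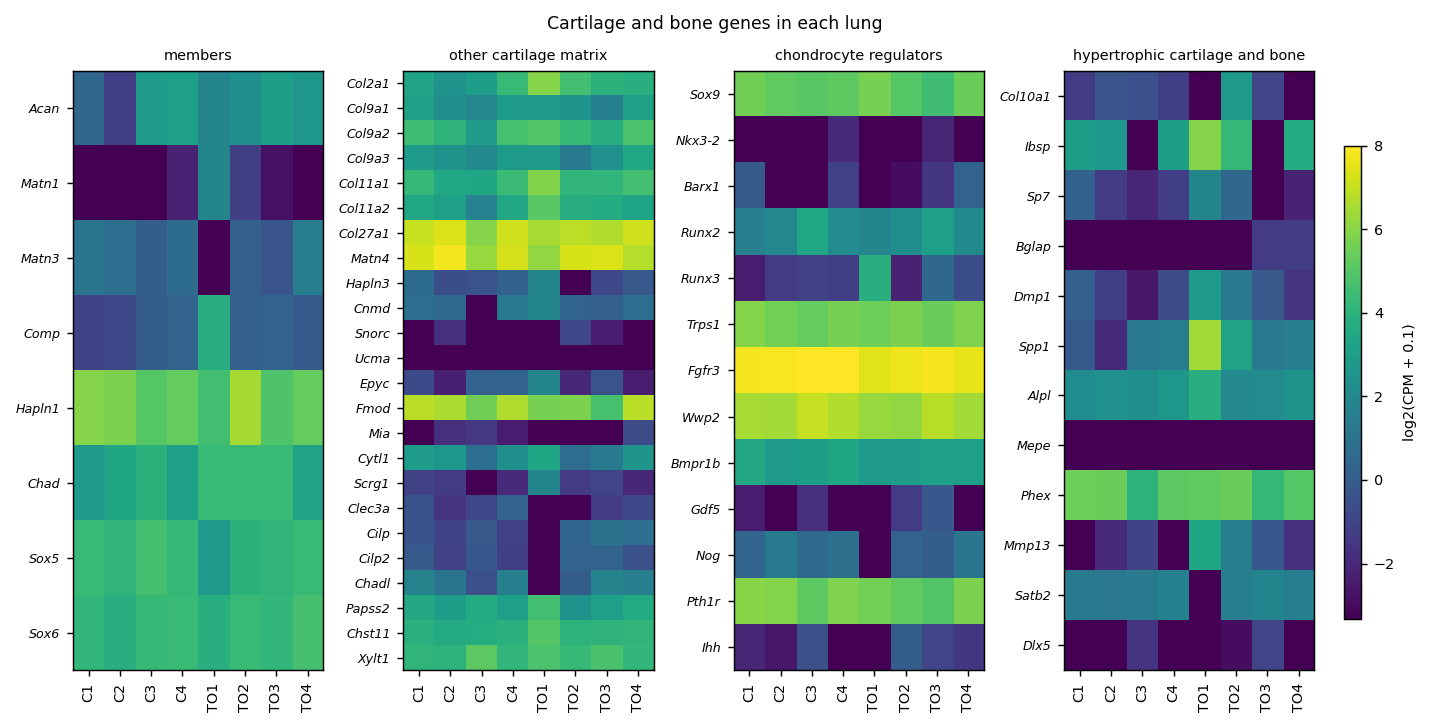
Level of the members, other cartilage matrix genes, chondrocyte regulators and genes of hypertrophic cartilage and bone (rows) in each lung (columns), in colour as log2(CPM + 0.1), where 0.1 is a pseudocount. Rows such as Fgfr3, Matn4 and Col27a1 are bright in all lungs, and Ucma and Mepe are at 0 in all. Spp1, Ibsp, Dmp1 and Mmp13 are brightest in TO 1 and TO 2, while Alpl is lowest of the deep lungs in TO 2.

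Relatives of the members and the enzymes that cut aggrecan were measured as well. Of 14 family relatives 12 were tested and none was called. The most abundant were Thbs1, the thrombospondin of platelets and wounded tissue (269 to 880 CPM in the deep libraries), and Vcan, the versican relative of aggrecan that dominates embryonic mesenchyme (144 to 319 CPM), both far above Acan on the CPM scale, which is not corrected for length. Ncan, a proteoglycan best known from brain, had a log2 fold change of 1.29 with an adjusted p of 0.907, and its level was 0.618 to 1.85 CPM in the controls and 1.96 to 2.69 CPM in the deep TO lungs. All 8 aggrecanases and their inhibitor were tested, with 6 above 0, a median log2 fold change of 0.28 and no call. Adamts15 (0.45) and Adamts5, the aggrecanase of joint cartilage (0.43), had unadjusted p under 0.05 by edgeR in 6 libraries, but with control 3 included their log2 fold changes were 0.07 and 0.19. All 5 tendon genes were tested, 3 above 0 and 2 below, with a median log2 fold change of 0.72 and no call. Thbs4 had a log2 fold change of 1.13, at 2.47 to 10.1 CPM in the controls and 8.55 to 23.7 CPM in the deep TO lungs. Scx, a transcription factor of tendon precursors, went the other way at -1.15, with 5.34 to 17.6 CPM in the controls and 3.26 to 11.7 CPM in the deep TO lungs. Both had an adjusted p of 0.907 by edgeR.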

How the data were processed

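Whole-lung RNA of 4 control and 4 TO fetuses was made into NexteraXT libraries and sequenced as read pairs by the authors, who aligned them to GRCm38 with STAR. The STAR version and annotation are not given in the sources used here. Each deposited file holds the authors' unnormalized counts for every gene, in 1 column for both strands (used here) and 1 per strand (an alternative). IDs were matched to symbols and exons of GENCODE M21, with 55144 of 55385 matched without the version.

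A gene was tested where 3 of the 6 fitted libraries or more held 5 reads of it (21859 genes), with edgeR 4.0.16 (quasi-likelihood test, TMM scaling, Benjamini-Hochberg adjustment, threshold 0.1) in R 4.3.3. DESeq2 1.42.0 and limma 3.58.1 were alternatives, and figures were drawn in Python with matplotlib. Scripts were tested on simulated data. CPM used TMM factors of all 8 libraries, and log2 CPM a prior count of 2. Intervals are exact Poisson intervals of counts at 95%, which, with no molecular identifiers in the reads, cover counting error only. The total per library was 270078 read pairs in TO 1 and at least 22822261 in the others, which sets the precision given with each value.

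Replicate numbers come from the sample titles. Deviations of same-numbered lungs from their group means correlated at 0.21, 0.34, 0.49 and 0.34 over 9335 genes, and every such pair exceeded 0.1, so the numbers were taken to pair the samples. Control 4 with TO 1 (0.33) and, over 7 libraries, control 1 with TO 4 (0.25) correlated as well, so the pairing is not clean. Blocked values stand beside a result where they change it. Named genes are the members, the 2 most abundant of each list and up to 4 per list with unadjusted p under 0.05, and the 10 genes most like the mean of the matrix members. Any further gene in the text was picked with its values known. The members and lists were chosen with earlier results of these data known.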

Additional observations from a re-analysis of the deposited data

Results flagged for a closer look

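Within each group of 4 lungs, 4 values of a member lay far from the other 3, out of 16 groups examined, where chance flags about 1 in 20 groups. Since 3 of the 4 lie in TO groups that include the shallow TO 1 library, and the fourth rests on 3 read pairs, this count says little about the members. Matn1 was at 0.121 CPM in control 4, from 3 read pairs, and at 0 in the other controls. Matn1 was at 3.43 CPM in TO 1, which is 1 read pair there. Comp was at 13.7 CPM in TO 1, from 4 read pairs. Chad was at 9.07 CPM in TO 4, while the other TO lungs stood at 20.3 to 20.6 CPM, the highest of them from 6 read pairs in TO 1.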

How the results depend on the processing

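Under 20 alternatives, 132 of 140 fitted values of the members kept their sign. Hapln1 turned to -0.0705 with limma-voom, -0.0529 with counts of the first strand, -0.0233 with a block by specimen digits in the file names, and -0.121 and -0.567 without control 4 and TO 2, within a range of -0.567 to 0.343 when 1 library was left out. Matn3 turned to 0.115 with counts of the second strand, 0.0586 with the replicate block in 6 libraries and 0.0792 without TO 3, within a range of -0.983 to 0.0792 when 1 library was left out. The cause was not tested. Acan kept its sign, but its log2 fold change ran from 0.418 to 3.06. On the 6 fitted libraries limma-voom gave it 2.16, with an unadjusted p of 0.0213 and an adjusted p of 0.774, against 0.949 by edgeR. The median of the members ran from 0.16 to 0.40.

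Genes called numbered 0 by edgeR (1123 at an unadjusted p under 0.05), 44 with DESeq2, 40 with every gene that had a read, and 219, 3 and 5 with the replicate block in 6, 8 and 7 libraries (the last chosen after seeing the data). Leaving out 1 library gave 0 to 144 genes (52 of 21094 without control 4, 144 of 20801 without TO 4) and 0 to 1 members. The 1 member was Chad without TO 4, whose log2 fold change ran from 0.771 to 1.25 when 1 library was left out. The replicate block changed no call of a member, and gave Chad 0.575 in 6 libraries and 0.508 in 7. Depth limits Matn1, Comp and Matn3, and all members in TO 1.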

Other observations

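The stratified epithelial genes Krt4 and Krt13, keratins of the lining of the esophagus and upper airway, were high in 2 deep lungs. Control 1 (149 CPM) and TO 4 (134 CPM) held most of Krt4, which ranged from 1.07 to 4.93 CPM in the other libraries. Krt13 was at 104 and 106 CPM in the same 2 lungs, 24.0 CPM in TO 1 and 0.289 to 1.25 CPM elsewhere. In control 1 and TO 4 Acan was at 1.23 and 6.23 CPM, Chad at 7.18 and 9.07 CPM and Matn1 at 0, and Matn3 had its highest levels of the 8 lungs, 2.01 and 2.56 CPM. The sum of the 10 stratified epithelial genes was 303 CPM in control 1, 299 CPM in TO 4, 525 CPM in TO 1 and 13.6 to 18.3 CPM in the other 5 lungs.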
